A study of Danio rerio with 2 samples.

Results

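Keratins are the intermediate filament proteins of epithelial cells. A filament is built from pairs of a type I and a type II keratin, and different epithelia use different pairs. The skin of a zebrafish embryo has an outer surface layer (the periderm, which descends from the enveloping layer of the early embryo) above basal cells that rest on the basement membrane. The fin fold is a flat outgrowth of this skin, stiffened by fibrils called actinotrichia, whose structural proteins include the actinodins.

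The genes described are 10 epidermal genes, fixed by name with earlier results of these data known. Each was found 1 to 1 among the 21699 genes of the deposited tables. They are the surface layer set krt4, krt8, krt17, krt18b, cyt1, cyt1l and aep1, the type II keratin krt5, and the fin fold actinodins and1 and and2. krt5 was kept on its own, since its name follows the human keratin of basal cells; in the wider lists below it counts with the basal genes. All 10 passed the limits on low values: in 1 library or both, an FPKM (fragments per kilobase of gene, scaled to library size) of 5 or more with 20 or more expected counts.

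Both libraries come from crosses of zebrafish (Danio rerio) that carried Tg(kdrl:GFP), a green fluorescent reporter driven by an endothelial promoter, and were heterozygous for gbf1tsu3994. At 44 hours post fertilization whole embryos were dispersed and GFP+ cells were collected by flow cytometry. The sibling library holds cells of embryos with normal morphology and the mutant library cells of embryos with mutant morphology, 1 library each, with 5657525 and 6169373 expected counts. The labels give morphology and no genotype per embryo, so siblings may include heterozygous carriers, and the number of embryos behind each library is not stated. With 1 library per group there is no test between conditions, and every interval is an exact 95% interval of counting error alone.

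The sorted cells are labelled as endothelial, but the 10 epidermal genes summed to 946 FPKM in the sibling library and 776 FPKM in the mutant library, beside 109 and 355 FPKM for a list of 27 pan-endothelial genes. krt8, also a keratin of simple epithelia, made up 216 and 376 FPKM of these sums. The keratins of the set that were lower in the mutant library, krt4, krt5, cyt1, cyt1l and krt17, together made up 686 and 365 FPKM. Since they were picked for being lower, the lower sum in the mutant library is no separate result. The FPKM of krt4 was 57.7 times that of kdrl, the VEGF receptor gene behind the reporter, in the sibling library and 10.5 times in the mutant library. kdrl itself was at 6.38 and 21.3 FPKM, and cdh5, which encodes VE-cadherin, at 1.96 and 9.03 FPKM. In bulk RNA, fewer cells of a type and less RNA per cell cannot be told apart.

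Of the 10 genes, 8 stood lower in the mutant library and 2 higher. Of all 14855 genes with a mean FPKM of at least 1, 4108 stood lower and 10730 higher. The surface layer set went both ways, with 5 genes lower and 2, krt8 and krt18b, higher. On log2((mutant FPKM + 1)/(sibling FPKM + 1)), here the log2 fold, 6 of the 10 genes were at least 2-fold lower: and2, and1, aep1, krt17, cyt1l and cyt1. 1 gene, krt18b, was at least 2-fold higher. Among all 8641 genes within the same limits, 1.05% were at least 2-fold lower and 7.72% at least 2-fold higher. The median log2 fold was -1.18 over the 10 genes and 0.27 over the 8641. Since the median gene was itself raised, the distance from it was larger for the lower genes: centred on that median, krt5 also passed, which made 7 of 10 lower against 2.15% of all genes. Scaled by TMM (trimmed mean of M values), the whole table had 331 genes higher and 187 lower in place of 667 and 91, and the same 7 genes were lower.

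**Figure D1:**
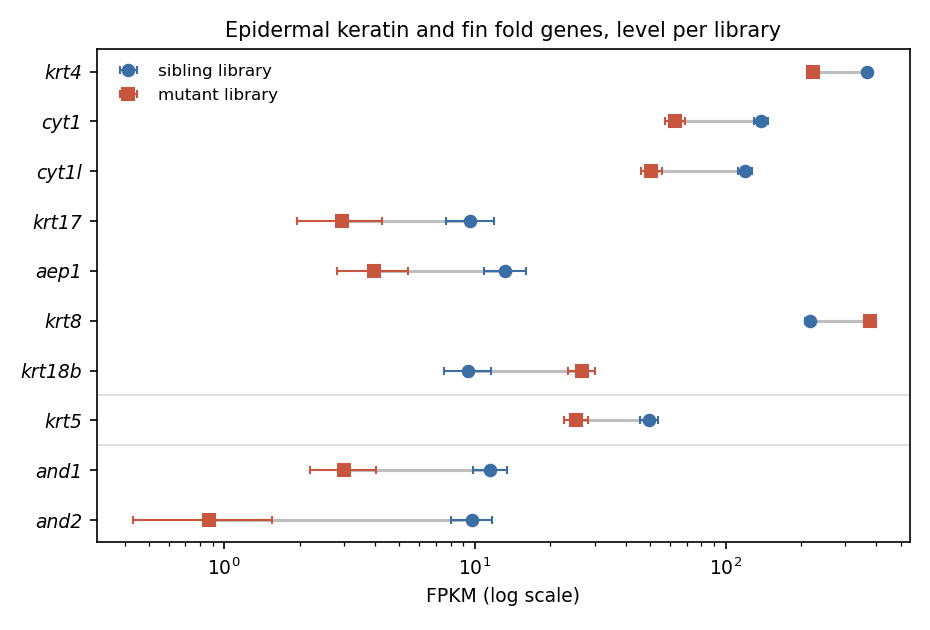
Level of each gene in FPKM (log axis) in the sibling library (blue circles) and the mutant library (red squares), with exact Poisson 95% intervals of the counts. krt8 and krt18b are the genes whose mutant point lies to the right of the sibling point, and and2 has the widest gap, from 9.73 to 0.87 FPKM.

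krt4 (ENSDARG00000017624), a type II keratin whose promoter is widely used to mark surface cells, was the most abundant of the 10 in the sibling library. It was at 368 FPKM in the sibling library and 224 FPKM in the mutant library, from 5273 and 3479 expected counts. The count ratio per library total was 0.61 (0.58 to 0.63), and the log2 fold of -0.72 did not reach 2-fold. The interval lay wholly below 1, while the median count ratio of the 8641 genes was 1.21. Scaled by median of ratios, the log2 fold of krt4 was -1.004, past the 2-fold limit.

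cyt1 and cyt1l are type I keratins named for the enveloping layer. cyt1 (ENSDARG00000092947) was at 138 FPKM in the sibling library and 62.9 FPKM in the mutant library, with 942 and 468 rounded counts, a ratio of 0.46 (0.41 to 0.51) and a log2 fold of -1.13. cyt1l (ENSDARG00000036832) was at 120 and 50.5 FPKM, with 969 and 419 rounded counts, a ratio of 0.40 (0.35 to 0.45) and a log2 fold of -1.23. The pair kept nearly the same proportion to each other, with cyt1 at 1.15 times the FPKM of cyt1l in the sibling library and 1.24 times in the mutant library. In TPM (FPKM rescaled to the same sum in each library) cyt1 had a log2 fold of -0.97 and missed the limit, and cyt1l did not.

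krt17 (ENSDARG00000094041), a further type I keratin, was scarcer, at 9.59 FPKM in the sibling library and 2.94 FPKM in the mutant library. Its 83 and 28 rounded counts gave a ratio of 0.31 (0.19 to 0.48) and a log2 fold of -1.43. aep1 (ENSDARG00000039099), which encodes an aerolysin-like protein and is no keratin, was at 13.2 and 3.96 FPKM. Its ratio was 0.34 (0.23 to 0.49) and its log2 fold -1.52, from 108 and 40 rounded counts. The count intervals of krt17 and aep1 overlap each other and those of cyt1 and cyt1l, so these 4 genes are not ordered by how much lower they were.

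krt8 and krt18b went the other way. krt8 (ENSDARG00000058358), the type II keratin of simple epithelia, was at 216 FPKM in the sibling library and 376 FPKM in the mutant library, where it took the place of krt4 as the most abundant of the 10. From 2683 and 5165 rounded counts, its ratio was 1.77 (1.68 to 1.85) and its log2 fold 0.79, under 2-fold. krt18b (ENSDARG00000028618), a type I partner of krt8 in simple epithelia, was at 9.39 and 26.7 FPKM, with 90 and 252 counts. Its ratio was 2.57 (2.01 to 3.30) and its log2 fold 1.41. Part of its FPKM difference comes from the listed gene length, 1664 bases in the sibling and 1515 bases in the mutant table. Both genes stayed above 0 under every scaling tried, with log2 folds of 0.51 to 0.95 for krt8 and 1.14 to 1.55 for krt18b.

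krt5 (ENSDARG00000058371) was at 49.6 FPKM in the sibling library and 25.3 FPKM in the mutant library. From 572 and 326 rounded counts, its ratio was 0.52 (0.45 to 0.60), and its log2 fold of -0.94 fell just short of the limit in FPKM. It passed under TMM, under median of ratios, without the 10 highest genes and when centred, at -1.22 at the lowest. Its counting interval overlapped those of krt4 and cyt1 and lay apart from that of krt8.

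The actinodins and1 and and2 had the lowest log2 folds of the 10. and1 (ENSDARG00000088514) was at 11.5 FPKM in the sibling library and 3 FPKM in the mutant library, with 159 and 45 counts. Its ratio was 0.26 (0.18 to 0.36) and its log2 fold -1.65. and2 (ENSDARG00000079302) was at 9.73 and 0.87 FPKM, with 113 and 11 counts. Its ratio was 0.089 (0.043 to 0.17), an 11.2-fold lower FPKM, and its log2 fold of -2.52 understates this because 1 was added to a level under 1. With 0.1 added in place of 1, the log2 fold of and2 was -3.34. The counting intervals of and1 and and2 do not overlap, and that of and2 lies below those of the other 9 genes. That of and1 overlaps those of aep1, krt17 and cyt1l, so and1 is not ordered below these genes. and1 was 1.18 times as abundant as and2 in FPKM in the sibling library and 3.45 times in the mutant library.

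**Figure D2:**
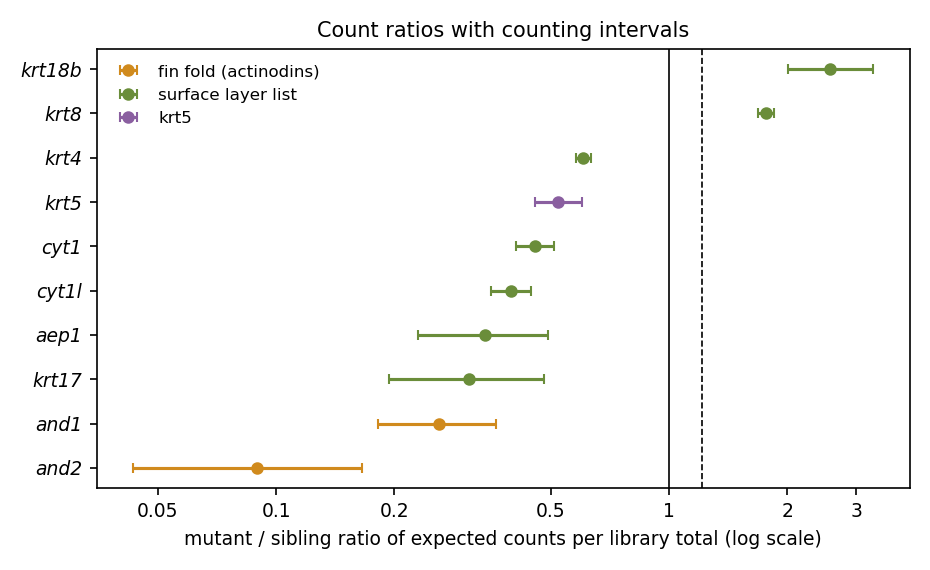
Ratio of expected counts per library total, mutant over sibling (log axis), with exact conditional binomial 95% intervals. The solid line is a ratio of 1 and the dashed line the median ratio of 1.21 over 8641 genes. Here 8 intervals lie below 1 and the 2 of krt8 and krt18b above it. How many of the 8641 genes have an interval that leaves out 1 was not counted, so these numbers have no background.

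The order of levels changed with these differences. In the sibling library the FPKM order was krt4, krt8, cyt1, cyt1l and krt5, each apart from the next by its counting interval. aep1, and1, and2, krt17 and krt18b followed between 13.2 and 9.39 FPKM, and neighbours in that stretch overlapped. In the mutant library krt8 led, before krt4, cyt1 and cyt1l, and krt18b and krt5 came next with overlapping intervals at 26.7 and 25.3 FPKM. aep1, and1 and krt17 overlapped between 3.96 and 2.94 FPKM, and and2 was last and apart.

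The summed keratin level hardly differed between the libraries in FPKM as deposited, while its make-up did. The 19 genes with a keratin symbol, a grouping made after the values were seen, summed to 1366 FPKM in the sibling library and 1371 FPKM in the mutant library. Their summed counts had a ratio of 1.02 (0.99 to 1.04), under the median count ratio of 1.21 over the 8641 genes. Against that median the keratin sum was lower in the mutant library, and it was not recomputed under the other scalings. krt4, krt5, cyt1, cyt1l and krt17 held 50.2% of the keratin FPKM in the sibling library and 26.6% in the mutant library. krt8, krt18b and krt18a.1, an abundant further type I keratin of simple epithelia, held 38.4% and 65.1%. Each of these groups holds genes that differed in the same direction, so the opposite shifts of their shares follow from the grouping. krt18a.1 was at 298 and 490 FPKM, with a count ratio of 1.70 (1.62 to 1.78) beside 1.77 for krt8. The FPKM of krt8 was 0.73 times that of krt18a.1 in the sibling library and 0.77 times in the mutant library, so this type II and type I pair kept its proportion.

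Sums over type I and type II genes mix members that were higher with members that were lower. Such a sum has to differ less than its most extreme members, so its small difference is no separate result. The type II genes krt4, krt5 and krt8 summed to 634 FPKM in the sibling library and 625 FPKM in the mutant library, a count ratio of 0.96 (0.94 to 0.99). The type I genes cyt1, cyt1l, krt17, krt18a.1 and krt18b summed to 576 and 633 FPKM, a count ratio of 1.18 (1.14 to 1.23). Other keratins of the tables, krt92, krt91 and krt1-19e among them, are in neither sum, so these ratios hold for the summed genes alone. Within type II, krt4 went from 1.70 times the FPKM of krt8 to 0.59 times. Within type I, cyt1 went from 0.46 times the FPKM of krt18a.1 to 0.13 times.

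**Figure D3:**
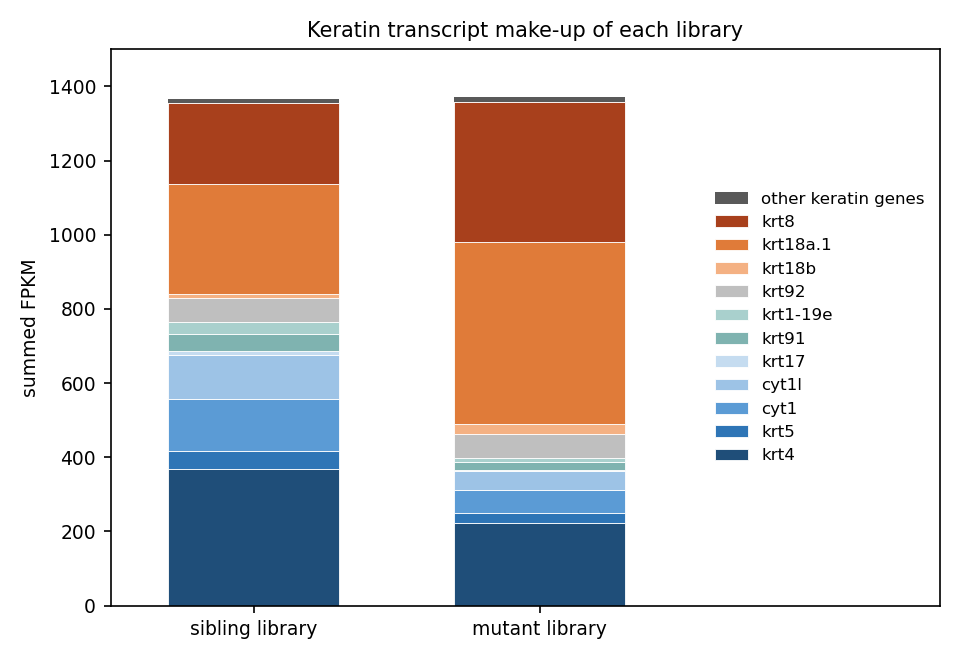
Summed FPKM of the 19 keratin genes in each library, stacked by gene. Blue shades are krt4, krt5, cyt1, cyt1l and krt17, which go from 50.2% to 26.6% of the total, and orange shades are krt8, krt18a.1 and krt18b, which go from 38.4% to 65.1%. Each of these groups holds genes that differed in the same direction, so the opposite shifts follow from the grouping.

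Keratin genes lie in tandem runs, and in the RefSeq gene table of GRCz12tu, used here for gene order alone, the 7 keratins among the 10 genes lie in such runs or close to another keratin. krt1-19e, krt92, cyt1l, cyt1, krt17 and krt91 follow one another with no other protein-coding gene between. Of this run, krt92 was at 64.7 and 65.8 FPKM, and the other 5 were all at least 2-fold lower, with krt91 at 45.5 and 21.8 FPKM. krt5, krt8 and krt18a.1 also follow one another, with krt5 lower and its neighbours higher in the mutant library. krt4 and krt18b have 1 protein-coding gene between them and differed in opposite directions. Neighbouring copies can be alike in sequence, and the expected counts of all the members but krt18b, and1 and and2 were not whole in at least 1 library, as happens when reads are divided between genes. A sum over neighbours is less exposed to this division: cyt1, cyt1l, krt17, krt91 and krt92 together went from 378 to 204 FPKM, a count ratio of 0.54 (0.50 to 0.57). krt1-19e, the remaining gene of the run, is not in this sum, so reads divided with it are not covered. It was at 34.0 and 11.3 FPKM.

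Most other surface layer genes did not reach 2-fold by the log2 fold. A list of 56 symbols for the surface layer, written with earlier results of these data known, gave 46 genes with a mean FPKM of at least 1, of which 6 were at least 2-fold lower and 2 higher. Its median log2 fold was -0.08, beside 0.25 over all 14855 genes with that mean, of which 1.29% were at least 2-fold lower and 7.22% higher. These shares are also the background of the list counts that follow. Without the keratins and aep1, 36 genes remained, with a median of 0.01, 1 at least 2-fold lower and 1 at least 2-fold higher. The lower gene was icn2 at 10.04 and 4.29 FPKM, and the higher was malb at 1 and 5.89 FPKM. icn2, on 24 and 11 rounded counts, and krt91 above were named after their values were seen.

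Adhesion genes of the epidermis did not differ in one direction. epcam, an epithelial cell adhesion molecule, was at 305 FPKM in the sibling library and 235 FPKM in the mutant library, a count ratio of 0.77 (0.72 to 0.81). cdh1, which encodes E-cadherin, was at 65.9 and 58.9 FPKM. Of the claudins, which seal epithelial junctions, cldn1 and cldne had log2 folds of -0.75 and -0.58 and cldnb 0.42. The desmosome genes pkp1 and pkp3 had 0.88 and 0.81 from levels of 1.88 and 2.06 FPKM in the sibling library. Both stayed under 5 FPKM in the mutant library, at 4.31 and 4.35 FPKM. At such levels the added 1 shrinks the log2 fold, and their count ratios were 2.28 (1.48 to 3.58) and 2.10 (1.42 to 3.16). pkp3a, at 6.76 and 5.63 FPKM, had a log2 fold of -0.23, and the genes listed as dsp had 0.26 and 0.31. These claudin and desmosome genes were named after their values were seen. grhl3, a transcription factor of the surface epithelium, was at 9.91 and 5.96 FPKM, with a log2 fold of -0.65. Its listed length was 2659 bases in the sibling table and 1821 bases in the mutant table, and its 153 and 68 counts gave a ratio of 0.41 (0.30 to 0.55), an interval that overlaps those of cyt1 and cyt1l. krt4 was 1.21 times as abundant as epcam in FPKM in the sibling library and 0.95 times in the mutant library.

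Basal layer genes did not move as one set either. Of 25 genes of the basal list with a mean FPKM of at least 1, 1 was at least 2-fold lower (4% beside 1.29% of all genes) and 2 higher (8% beside 7.22%), with a median log2 fold of -0.14. Without krt5 the counts were the same and the median was -0.12. The lower gene was krt1-19e (also called krtt1c19e), the keratin used to mark basal cells, at 34.0 FPKM in the sibling library and 11.3 FPKM in the mutant library. Its count ratio was 0.34 (0.27 to 0.44), in the range of cyt1l and krt17. tp63, the transcription factor that specifies basal keratinocytes, was at 11.4 and 9.47 FPKM. itgb4, an integrin of hemidesmosomes, was at 6.69 and 7.63 FPKM, but on listed lengths of 5811 bases in the sibling and 4630 bases in the mutant table. By counts the ratios were alike, at 0.90 (0.72 to 1.13) for tp63 and 0.90 (0.75 to 1.09) for itgb4. col17a1a, a hemidesmosome collagen, was low at 1.66 and 0.40 FPKM, with 46 and 12 counts and a ratio of 0.24 (0.12 to 0.46).

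The keratins krt94 and krt15 of the basal list were scarce. krt94 was at 2.01 and 6.05 FPKM, with a count ratio of 3.0 (1.84 to 5.08), and krt15 at 1.01 and 1.55 FPKM, with 9 and 15 counts and an interval that held 1. pleca, a gene for the cytolinker plectin, was the other higher gene at 1.25 and 3.54 FPKM. col7a1, which encodes the collagen of anchoring fibrils, had a log2 fold of -0.95 in FPKM, but its listed length was 4389 bases in the sibling and 10516 bases in the mutant table. By counts its ratio was 0.75 with an interval that held 1 (0.51 to 1.11). Without keratins, 21 genes of the basal list had a median of -0.14, and pleca was the only one past 2-fold.

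In the fin fold list the actinodins stood apart from the other members. and3, a further actinodin, was at 6.22 FPKM in the sibling library and 1.73 FPKM in the mutant library, with 43 and 13 counts and a ratio of 0.28 (0.14 to 0.53). Together the 3 actinodins went from 27.5 to 5.60 FPKM, with 315 and 69 counts, a ratio of 0.20 (0.15 to 0.26). They were the 3 genes of the list that were at least 2-fold lower. Of the 42 other genes of the list with a mean FPKM of at least 1, 6 passed 2-fold upward (14.3% beside 7.22% of all genes) and none downward. Only 3 of these 6 were also within the limits on low values, which 21 genes of the list passed, beside 7.72% higher among the 8641. dlx6, among the 6, had 4 and 13 counts and a ratio interval that held 1 (0.92 to 12.5). The median log2 fold of the 42 genes was 0.26, near the 0.25 of all genes. The list is broad, and col1a1a, col1a2 and col5a1 also stand in the mural and mesenchymal list below, so this median is not one of fin fold cells alone. A gene listed as tnc, among the 6, had a count ratio of 1.73 (1.55 to 1.92) on listed lengths of 6100 and 5099 bases.

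Among those others, dlx3b (listed as dlx3), a homeobox gene of the Dlx family, was at 3.93 and 12.6 FPKM, with 36 and 125 counts. gja1b (listed as gja1), which encodes the gap junction protein connexin 43, was at 8.91 and 27.8 FPKM. hmcn1, a gene for a matrix protein that holds the fin fold layers together, was at 0.32 and 3.19 FPKM. Its FPKM difference rests largely on listed lengths of 16804 and 3909 bases, and its counts of 32 and 79 gave a ratio of 2.26 (1.48 to 3.53). fras1, a basement membrane gene needed for fin fold integrity, was at 3.62 and 2.70 FPKM.

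**Figure D4:**
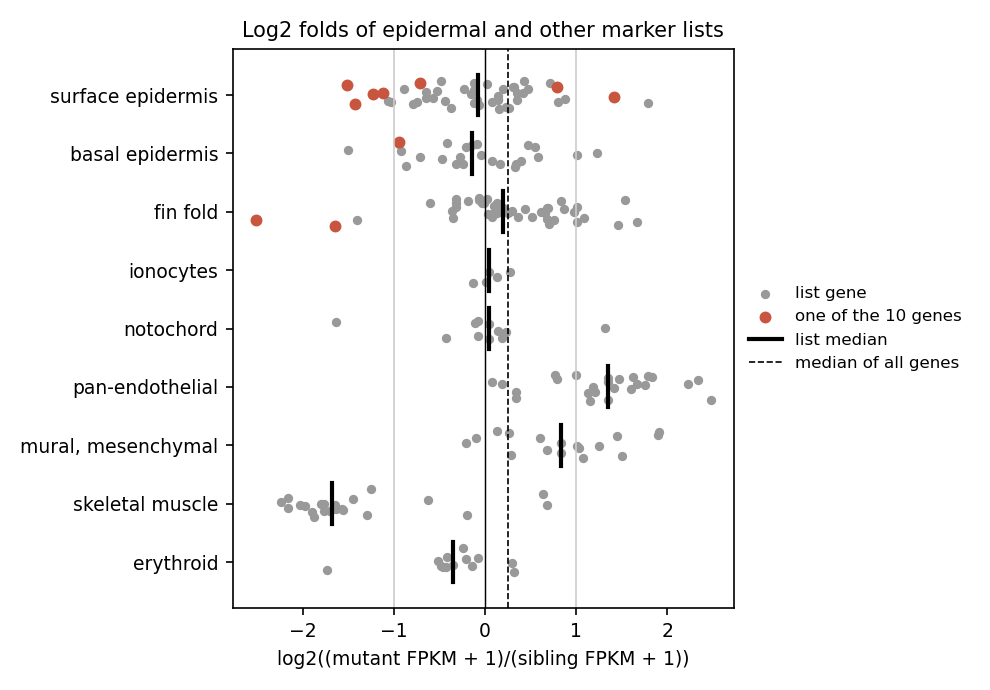
Log2 fold of each gene with a mean FPKM of at least 1, by marker list (grey points), with the 10 genes in red, list medians as black bars and the median of all genes as a dashed line at 0.25. The red points of the surface list spread from aep1 at -1.52 to krt18b at 1.41, with malb, in grey, farther right at 1.78, and and1 and and2 lie at the far left of the fin fold list.

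Markers of other cell types differed between the same libraries, and their part in the epidermal differences was not tested. Of 22 skeletal muscle genes with a mean FPKM of at least 1, 18 were lower by at least 2-fold. Their median log2 fold was -1.68, and the whole list of 26 genes summed to 1262 FPKM in the sibling library and 384 FPKM in the mutant library, with 1 gene at 0 in the mutant library. The median of and1 and and2 was -2.08 and that of the 7 surface genes -1.13. These are medians of the chosen members. The wider lists had medians of -0.08 for the surface layer, -0.14 for the basal layer and 0.20 for the fin fold. 18 of 25 pan-endothelial genes were higher by that margin, with a median of 1.35 and no gene of the list at 0. Mural and mesenchymal genes numbered 17, of which 8 were higher by that margin, with a median of 0.84. The whole mural list of 20 genes summed to 301 and 433 FPKM. The 13 erythroid genes had a median of -0.36, and the globin gene hbae1.2 was at 159111 and 118855 FPKM.

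Lists for other cells of the skin and for the notochord, which also uses krt8 and krt18, had few genes past 2-fold. The 5 ionocyte genes with a mean FPKM of at least 1 had a median log2 fold of 0.05, none past 2-fold. The whole list summed to 42.0 and 46.8 FPKM, most of it from the genes listed as atp6v1a, at 22.5 and 27.4 FPKM and at 5.66 and 6.27 FPKM. foxi3b, which specifies ionocytes, was at 1.21 and 0.49 FPKM on 9 and 4 counts, and foxi3a was listed in the sibling library alone at 0.44 FPKM. The 11 notochord genes had a median of 0.04. ntd5 was at 2.33 and 7.32 FPKM, with a count ratio of 3.13 (1.97 to 5.17). The caveolin gene cav3 was at 3.12 and 0.32 FPKM, with a ratio of 0.10 (0.011 to 0.43). It rested on 18 and 2 counts, under the limits on low values. Of 8 mucous and hatching gland genes, 1 was at least 2-fold lower and 6 had a log2 fold above 0, with a median of 0.38. A log2 fold above 0 was common, with 10730 of all 14855 genes with a mean FPKM of at least 1. The lower was the hatching enzyme gene he1.2 at 4.08 and 0.92 FPKM, on 19 and 5 rounded counts, under the limits on low values. he1.1, a further hatching enzyme gene, was at 5.13 and 6.23 FPKM. Expected counts of both genes were not whole, as happens when reads are divided between genes. The whole list of 11 genes summed to 325 FPKM in the sibling library and 483 FPKM in the mutant library. Most of this sum was xbp1, at 190 and 295 FPKM. cd63 was at 46.7 and 93.4 FPKM, atp6ap2 at 56.8 and 52.9 FPKM and prdm1 at 8.50 and 16.2 FPKM. agr2 was at 6.53 and 7.31 FPKM, and muc5.1 and muc5.2 were at 0.05 FPKM or less, so the sum mainly follows xbp1 and cd63.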

How the data were processed

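RNA from 2 sorted-cell libraries was sequenced, 1 per group. The submitters' processing notes name the build GRCz10 and the tools RSEM, Bowtie2, BWA and bcl2fastq 2.16, without saying which did what. The annotation release is not given in the sources used here. Expected counts deposited by the authors are estimates without normalization and were rounded for intervals. FPKM values, as deposited, are per effective gene length and library size and were not scaled further. The other deposited column, gene length in bases, is listed per library, so an isoform shift changes FPKM. A gene listed in 1 table was set to 0 in the other.

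Symbols came from a table of Ensembl IDs that named 91.3% of genes. The members and all lists were chosen with earlier results of these data known. Of 301 list entries, 263 matched, some through a RefSeq synonym or without the paralog letter, and such a match may join paralogs. Named genes were taken from the 10 members, the 6 genes of each list farthest from a log2 fold of 0, and a set fixed by name, of which bmp1a matched no single gene. Others given as examples were named after their values were seen.

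Python 3.11.15, scipy 1.17.1 and edgeR 4.0.16 (TMM factors alone) were used. Count ratios have exact conditional binomial intervals of 95%, which hold counting error alone, and PCR duplicates were not marked by molecular identifiers. Calculations were tested on simulated counts. Replicates do not exist, so no p-value or standard error was computed. No sequence of these genes was used here.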

Additional observations from a re-analysis of the deposited data

How the results depend on the processing

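The alternatives were another pseudocount, TPM, TMM, median of ratios, rescaling without the 10 highest genes, centring, CPM from the counts, and 2 looser filters. Each of the 10 genes kept its direction under all of them. The number of genes at least 2-fold lower ranged from 5 (TPM) to 8 (median of ratios), and krt18b was the only one at least 2-fold higher under each. The surface layer median of -1.13 was -1.40 under TMM, -1.41 under median of ratios, -1.30 without the 10 highest genes and -1.40 when centred. The wider list medians lie close to 0 and changed sign: surface to 0.04 under TPM and 0.08 with no filter, basal to 0.02 under TPM, and fin fold to -0.06 under TMM, -0.08 under median of ratios and -0.07 when centred. The median over all genes within the limits of a setting moved too. From 0.27 it went to 0.42 under TPM, 0.18 with no filter, -0.01 under TMM and -0.02 under median of ratios. The surface and basal medians lay below it in every setting. Over all genes, counts higher and lower were 331 and 187 under TMM, 326 and 192 under median of ratios, and 320 and 186 when centred. TPM and a pseudocount of 0.1 moved them the other way on the higher side, to 961 and 71 and to 883 and 115. Without the 10 highest genes 190 were lower. Both with no filter and with an FPKM of at least 1 as the sole limit, 1205 were higher and 292 lower, since more genes were counted. Summing genes that share a symbol changed nothing, because each member has its own. With 1 library per group no library could be left out, and depth limits and2, krt17 and aep1 most in the mutant library, at 11, 28 and 40 counts. No paired analysis was possible because each group has 1 library.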
